A study of Mus musculus with 6 samples.

Results

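Ccn2 and 7 other genes of the YAP pathway were followed through 24 h of Snail induction in mouse embryonic stem cells. The members were taken by symbol, as every probe annotated to Ccn2, Ccn1, Amotl2, Ankrd1, Lats2, Yap1, Tead1 or Tead2, which gave 14 probes of 8 genes out of 19057 genes with a probe of their own. They were chosen by pathway with their normalized signals over the time course already known, Ccn2 for its large difference from 0 h, so they are described here without a test. The cells were the E14 line expressing Snail-ER, the zinc finger repressor Snail joined to an estrogen receptor domain, in medium with 15% serum and LIF. RNA was collected after 0, 2, 4, 8, 12 and 24 h of 4-hydroxytamoxifen (4-OHT), which lets the fusion enter the nucleus, and each time was measured on 1 Illumina bead array. The fusion was present in all 6 groups. Time-matched cells without 4-OHT, and cells lacking Snail-ER, were not analysed here, so culture time, 4-OHT and the fusion cannot be told apart. Whether each time had its own culture, and whether the line is 1 clone, is not given in the sources used here.

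YAP1 is a transcriptional coactivator that enters the nucleus when the Hippo kinases are quiet and binds DNA through the TEAD factors. LATS kinases phosphorylate it and hold it in the cytoplasm. Ccn2, Ccn1 and Ankrd1 are the targets most often read as YAP and TEAD output, while Amotl2 and Lats2 are targets that also restrain YAP. In pluripotent cells TEAD factors and YAP are expressed at baseline, and stiff or spread growth is known to raise their activity in many cell types.

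Values are the authors' normalized signals, linear and background-subtracted, and a difference is on the scale of log2(signal + 16), which understates changes of dim genes. Folds are likewise ratios of signal + 16, so they are smaller than the ratios of the printed signals. Detection on an array means that a probe lay at or above the signal matching a detection p under 0.01 there. That limit was 60.7, 71.1, 31.4, 62.0, 18.5 and 18.9 normalized units in order of time, so the 4, 12 and 24 h arrays could show dimmer genes than the other 3. By this rule 9 of the 14 probes were detected on at least 1 array and 6 on all 6 arrays. A detection p of their own was given for 11 of the 14. The Yap1 and Tead2 probes and 1 undetected Tead1 probe had none and no value before normalization, so they were called by that limit. Levels of different probes cannot be set against each other.

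Of the 4 members detected on all arrays, the secreted matricellular gene Ccn2 had the largest difference from 0 h. From 0 to 24 h the 6 arrays gave its brighter probe 153, 247, 314, 455, 464 and 1177 normalized units. The signal was higher at each later time, nearly level between 8 and 12 h, and highest at 24 h. A dimmer Ccn2 probe had signals of 63.9, 81.7, 123, 188, 186 and 526, with the same order of times except that 12 h lay just under 8 h. Against the 0 h array the brighter probe stood 1.56-fold higher at 2 h, and 4 h was 1.96-fold above 0 h. At 8 and 12 h it was 2.79-fold and 2.84-fold higher, and by 24 h 7.06-fold. A signal at least 2-fold above 0 h was seen in 2.45% of all genes compared at 8 h and 4.36% at 12 h. The dimmer probe gave 1.22-fold at 2 h and 6.78-fold at 24 h. A line through log2(hours + 1) gave both probes a change of 2.59 on the log2 scale between 0 and 24 h (SE 0.28 and 0.35).

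On these arrays the Ccn2 difference lay in 2 stretches, one before 8 h and one after 12 h. Both probes were read on the same arrays, 1 per time, so a course of this shape and differences between arrays cannot be told apart. Between neighbouring times the brighter probe differed by 0.64, 0.33, 0.51, 0.03 and 1.31 on the log2 scale, and the dimmer one by 0.29, 0.51, 0.56, -0.02 and 1.42. The signal at 24 h was 2.49-fold that at 12 h for the brighter probe and 2.68-fold for the dimmer one. Across all genes a 2-fold higher signal at 24 h than at 12 h was seen in 0.586% of the 9220 genes compared. Among 5917 genes detected on all 6 arrays, Ccn2 ranked 27 by its difference from 0 h on the 2 h array. It ranked 1 on the 4 h array and 1 on the 24 h array, and 4 by the step between 12 and 24 h. These ranks describe a gene that was picked for its size.

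**Figure D1:**
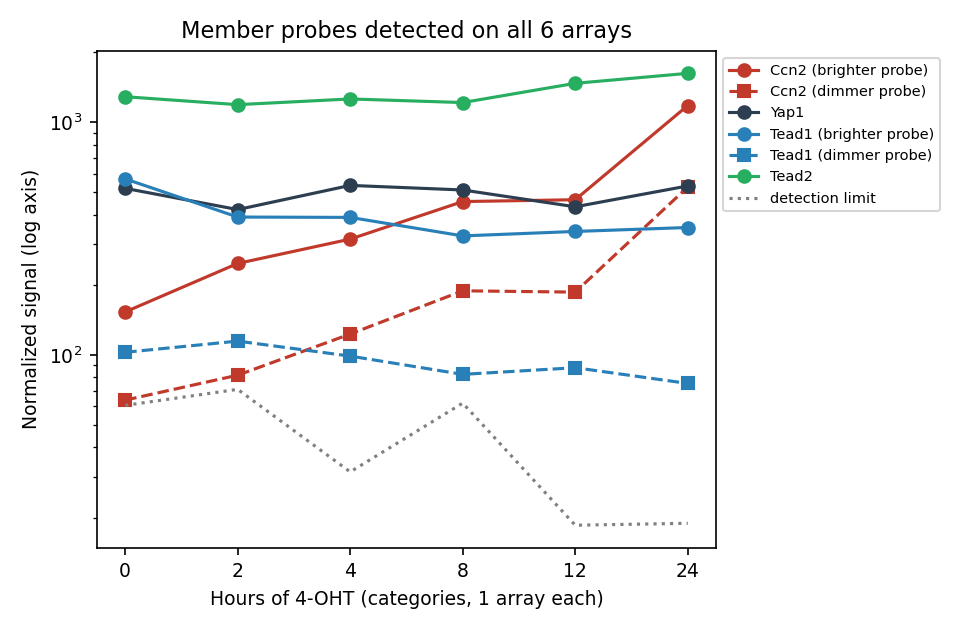
Normalized signal (log axis) of the 6 member probes detected on every array, against hours of 4-OHT with 1 array per time; the dotted line is the detection limit. Both Ccn2 probes climb, to 1177 and 526 at 24 h, while Yap1 and Tead2 stay near their 0 h level and both Tead1 probes end below theirs.

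The other targets lay near background. Ccn1, the closest relative of Ccn2 on this list and an inducible matricellular gene itself, had 3 probes, of which 1 was detected, at 24 h alone. That probe had signals of -4.20, -0.17, 5.59, 6.20, 16.4 and 34.9 in order of time, so it was highest at 24 h and next highest at 12 h. The 12 h value fell just short of the limit, with a detection p of 0.017. Its 24 h signal stood at least 1.47-fold above 12 h, and it was below the limits of the 0, 2 and 8 h arrays, so no fold against 0 h can be given. The other Ccn1 probes reached 10.5 and 5.92 at 24 h, their highest values, without being detected.

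Amotl2, which encodes an angiomotin that binds YAP, had signals of 6.85, 7.07, 20.6, 7.19, 26.9 and 48.5. It was detected at 12 and 24 h, with a 24 h level 1.51-fold above that at 12 h. The 24 h level was also at least 1.36-fold above the 4 h one. The 4 h signal stood above those at 2 and 8 h but was not detected. Against 0 h no fold can be given, since 48.5 lies under the 0 h limit.

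Ankrd1, a cardiac ankyrin repeat gene, was detected on the same arrays as Amotl2 but was level between them. Its brighter probe had signals of 27.8, 19.1, 0.75, 11.9, 22.8 and 22.7, the highest of them at 0 h, where the limit was too high for detection. It was detected at 12 and 24 h, at levels that differed by 1.003-fold. The 0, 2, 4 and 8 h values were not detected, so no order is read from them. The other Ankrd1 probe was not detected on any array. The single Lats2 probe, for the kinase that phosphorylates YAP, was not detected on any array either, with signals between -10.7 and -1.32, so nothing can be said of its direction.

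**Figure D2:**
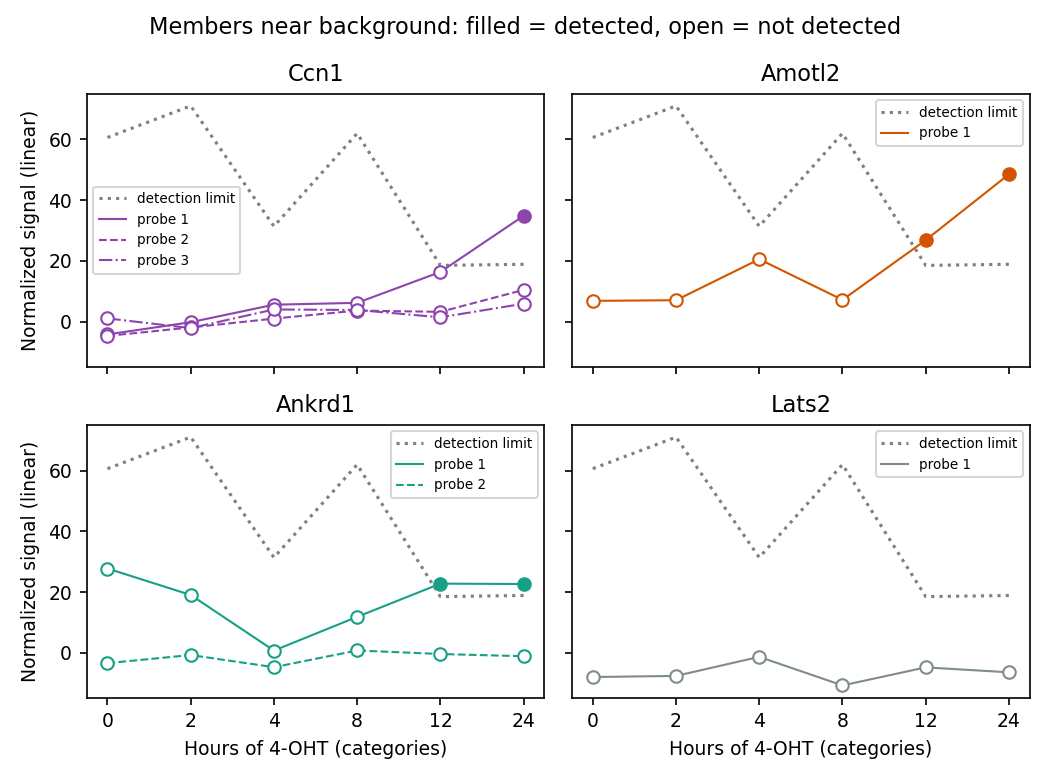
Normalized signal (linear axis) of each probe of Ccn1, Amotl2, Ankrd1 and Lats2 by hours of 4-OHT, with 1 array per time; filled points were detected, open points were not, and the dotted line is the detection limit of each array. Ccn1 probe 1 and Amotl2 reach 34.9 and 48.5 at 24 h, while Ankrd1 probe 1 is highest at 0 h, where it was not detected, and Lats2 stays below 0.

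Yap1 and Tead2 differed little between times, beside Ccn2. Yap1 had signals of 519, 421, 534, 511, 432 and 531 in order of time. The values at 2 and 12 h were the lowest and the others lay close together, with 24 h 1.02-fold higher than 0 h (fitted change 0.02, SE 0.19). Tead2, the TEAD factor best known from early embryos, had signals of 1284, 1187, 1256, 1212, 1466 and 1618. The 12 and 24 h values were its highest, 1.14-fold and 1.26-fold higher than 0 h (fitted change 0.33, SE 0.17).

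Tead1 was lower at the later times by both detected probes. The brighter one had signals of 570, 391, 389, 324, 339 and 352, with the whole difference present by 8 h, and it stood 1.72-fold below the 0 h level at 8 h and 1.59-fold below it at 24 h (fitted change -0.69, SE 0.19). The dimmer one had 103, 115, 98.7, 82.4, 88.0 and 75.3, was highest at 2 h and was 1.30-fold lower at 24 h (fitted change -0.44, SE 0.21). A further Tead1 probe was not detected. The brighter probe was already 1.44-fold lower at 2 h, where the dimmer one was 1.10-fold higher, so the probes differ on the first hours.

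Of the 4 members detected throughout, Ccn2 was at least 2-fold higher at 24 h than at 0 h, and Yap1, Tead1 and Tead2 were within 2-fold. Among 8906 genes detected at either time, 4.2% were at least 2-fold higher and 4.21% at least 2-fold lower at 24 h. Nothing is read from this share, because the members were picked with these values known.

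Promoters were examined because the targets share a regulator. RefSeq (GRCm38.p6) gave windows of 250 bases before to 50 after the start for 6 members, with 2 windows for Lats2. No window was found under the symbols Ccn2 and Tead1 in the set used here, so these genes were not searched. The core of the TEAD site, GGAATG, was searched on both strands. It was found in 5 of the 7 windows, those of Ccn1, Amotl2, Ankrd1, Lats2 and Yap1, and in 14.7% of all 32851 windows of that length. Nothing is read from these shares, since the members were chosen as targets and factors of this pathway. A match is a description of the letters, and was not tested as a bound site. The windows of Lats2, of which 1 of 2 has a match, and those of Yap1 and Tead2 are not printed. The windows of Ccn1, Amotl2 and Ankrd1 follow, 5′ to 3′ on the gene's strand, with GGAATG or its reverse complement in capitals.
Ccn1, chr3:145649936-145650235, minus strand: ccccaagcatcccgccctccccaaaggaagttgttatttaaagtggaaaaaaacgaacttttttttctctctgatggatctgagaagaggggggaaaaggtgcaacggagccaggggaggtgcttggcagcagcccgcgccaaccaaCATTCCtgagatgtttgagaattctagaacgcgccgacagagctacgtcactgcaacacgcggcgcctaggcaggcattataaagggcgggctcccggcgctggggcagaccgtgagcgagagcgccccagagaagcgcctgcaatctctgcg
Amotl2, chr9:102717554-102717853, plus strand: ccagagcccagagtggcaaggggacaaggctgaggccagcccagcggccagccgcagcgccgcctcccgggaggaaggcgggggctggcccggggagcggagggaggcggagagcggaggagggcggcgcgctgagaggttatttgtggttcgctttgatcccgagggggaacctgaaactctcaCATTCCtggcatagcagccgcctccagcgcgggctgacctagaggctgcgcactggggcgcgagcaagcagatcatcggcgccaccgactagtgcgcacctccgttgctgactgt
Ankrd1, chr19:36119795-36120094, minus strand: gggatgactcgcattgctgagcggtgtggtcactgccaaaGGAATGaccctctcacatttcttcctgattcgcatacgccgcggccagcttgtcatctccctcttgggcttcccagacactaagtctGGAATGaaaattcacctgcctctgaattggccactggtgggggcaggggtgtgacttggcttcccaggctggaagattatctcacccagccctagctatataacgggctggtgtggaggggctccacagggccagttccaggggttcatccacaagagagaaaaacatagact

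The match begins 103 bases before the start in Ccn1 and 65 before it in Amotl2, both on the opposite strand, and 210 and 123 bases before it in Ankrd1, as written. Yap1 and Lats2 each have 1 match, as written, 141 bases before and 4 bases after the start. The Snail site CAGGTG, searched the same way, occurs in 20.2% of all windows, and here in Ankrd1, 111 bases before the start, and in Lats2, 134 bases before it.
The Ankrd1 bases around the Snail site, with a TEAD core just before it, are shown with CACCTG, its reverse complement, in capitals.
Ankrd1, chr19:36119938-36119967, minus strand: ggaatgaaaattCACCTGcctctgaattgg
Ccn1, Amotl2 and Yap1 have a TEAD core and no CAGGTG in these windows, and Ankrd1 and 1 Lats2 window have both. Whether either site bears on the signals was not tested.

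The rest of the pathway was followed through 66 further genes in 5 lists, of which 61 had probes and 41 were detected on at least 1 array. These were tested with limma, as a slope over log2(hours + 1) fitted across all 9432 detected genes, 2-sided, with 4 residual degrees of freedom. At an adjusted p under 0.05, 8 of the 41 rose (19.5%) and 1 fell, and 32 did not pass. Over all 9432 genes, 6.24% rose and 6.19% fell. Of the 22 pathway genes detected on all 6 arrays, 5 rose (22.7%) and 1 fell, where 5.48% of all such genes rose and 6.76% fell. These shares describe the lists and carry no test of their own. Genes that were detected only on later arrays with low limits could enter the test only through those arrays, so the first share is no support for a rise of the lists. With hours in place of log2(hours + 1), 0 of the 41 passed in limma (10 upward and 3 downward at an unadjusted p under 0.05).

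Among other YAP and TEAD targets, 3 of 14 measured genes rose and none fell, of 22 listed. Over all genes tested, 6.24% rose and 6.19% fell. The median difference at 24 h was 0.49 on the log2 scale, against 0.047 over all genes. Of the 14, only 6 were detected on all 6 arrays, and 1 of these rose. That median includes genes under the 0 h limit, for which no fold can be given, so nothing is read from it. Ptpn14, a phosphatase that binds YAP, gave 57.1, 64.3, 85.3, 196, 219 and 176 units from 0 to 24 h. Its probe was detected from 4 h on and stayed above the early values from 8 h, with a 24 h level at least 2.51-fold above 0 h (fitted change 1.87 ± 0.36, SE; limma adjusted p = 0.010). Igfbp3, which encodes an insulin-like growth factor binding protein, was detected at 4, 12 and 24 h and had 57.4 units at 24 h, against 18.3 at 0 h (limma adjusted p = 0.015). The 24 h value lies under the 0 h limit, so it gives no fold. Igfbp3 entered the test only through the 4, 12 and 24 h arrays, which had the lower limits. Amotl1, a relative of Amotl2, was detected throughout and was 1.80-fold higher at 24 h, with 181 units against 93.7 at 0 h (limma adjusted p = 0.015). A second probe of each of these 3 genes sloped the same way. Without the 0 h array the limma adjusted p was 0.050 for Ptpn14, 0.090 for Igfbp3 and 0.147 for Amotl1, and without the 12 h array it was 0.053 for Igfbp3 and 0.0501 for Amotl1. Ajuba, which encodes a LIM protein that binds LATS, did not pass, with 40.1 units at 24 h against 15.0 at 0 h (limma adjusted p = 0.15). A dimmer Ajuba probe had a fitted change of 1.23 ± 0.33, beside 0.76 ± 0.31 for the brighter, each detected on 2 arrays. The receptor kinase gene Axl did not pass either, at 50.2 units at 24 h against 33.9 at 0 h (limma adjusted p = 0.46), and F3 and Crim1 were not detected on any array.

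Of the Hippo kinases, adaptors and inhibitors, 3 of 15 measured genes rose and none fell, where 6.24% and 6.19% of all genes did. With the mean of each gene's probes in place of the brightest probe, 1 of the 15 rose. Map4k4, a kinase that can activate LATS, gave 922, 1284, 1235, 1613, 1609 and 2054 in order of time. It followed the shape of Ccn2, level between 8 and 12 h and highest at 24 h, at 2.21-fold over 0 h (fitted change 1.09 ± 0.15, SE; limma adjusted p = 0.0037). Its call held without each array in turn (limma adjusted p from 0.0025 to 0.031), and a dimmer probe gave a fitted change of 1.12. The adaptor genes Rassf1 and Wwc2 had 357 and 1096 units at 24 h against 234 and 728 at 0 h (limma adjusted p = 0.034 and 0.036). Other detected probes of Rassf1 and Wwc2 gave fitted changes as low as 0.00 and 0.04, so not every probe of these genes sloped upward to the same extent. Rassf1 did not pass without the 0 h array (limma adjusted p = 0.146), the 2 h array (0.078) or the 12 h array (0.092). Wwc2 passed only without the 4 h array (limma adjusted p = 0.0496) and ranged from 0.056 to 0.21 without the others. Limd1, another LIM gene, had 158 units at 24 h against 91.3 at 0 h (limma adjusted p = 0.064). Of the core cassette, the MST kinase gene Stk4 had a fitted slope worth -0.01 ± 0.20 over 24 h (limma adjusted p = 0.97), its adaptor gene Sav1 0.50 ± 0.19 (limma adjusted p = 0.11), and Lats1 was detected at 4, 12 and 24 h with -0.47 ± 0.29 (limma adjusted p = 0.30).

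None of the 4 measured YAP and TEAD partners passed the limma test, which 12.4% of all genes passed. Wwtr1, the gene of the YAP relative TAZ, had signals of 243, 251, 245, 139, 122 and 171 in order of time. Those signals are of its brightest probe. Dimmer Wwtr1 probes, detected on 1 and 2 arrays, had fitted changes of -0.31 ± 0.32 and -0.16 ± 0.50. By the brightest probe the 8, 12 and 24 h values all lay below the first 3, yet the fitted change of -0.85 ± 0.30 did not pass (limma adjusted p = 0.088). Tead4, a TEAD factor known for its role in trophectoderm, likewise had lower values from 8 h on, with 55.4, 58.1, 53.5, 30.5, 30.4 and 39.2 units, of which the 4, 12 and 24 h values were detected (limma adjusted p = 0.17). The cofactor genes Vgll3 and Vgll4 had 21.6 and 20.8 units at 24 h against 4.39 and 14.3 at 0 h, detected on 1 and 2 arrays (limma adjusted p = 0.12 and 0.30).

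Among polarity genes and atypical cadherins upstream of Hippo, 1 of 8 measured genes rose and 1 fell, where 6.24% and 6.19% of all genes did. Fat1, a giant cadherin, had 1174, 1129, 1299, 2526, 2405 and 2595 units in order of time, a step between 4 and 8 h (24 h 2.20-fold above 0 h; fitted change 1.43 ± 0.27, SE; limma adjusted p = 0.010). Llgl2, a basolateral polarity gene, had 1140, 908, 871, 598, 566 and 540 units and stood at 24 h 2.08-fold below 0 h (fitted change -1.18 ± 0.17, SE; limma adjusted p = 0.0041). Both calls held without each array in turn. Pard3 was dim, with 20.1 units at 24 h against 6.15 at 0 h (limma adjusted p = 0.34). Of the other CCN family genes, Ccn4, a Wnt-inducible relative of Ccn2, was the 1 that was detected, at 12 and 24 h. It had 0.69, -0.38, 0.41, 13.4, 23.8 and 32.7 units, all under the 0 h limit, so no fold against 0 h can be given. Its slope passed (limma adjusted p = 0.032), though the gene entered the test only through the 2 arrays where it was highest, and it did not pass without the 2 h array (limma adjusted p = 0.075), the 12 h array (0.094) or the 24 h array (0.167).

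**Figure D3:**
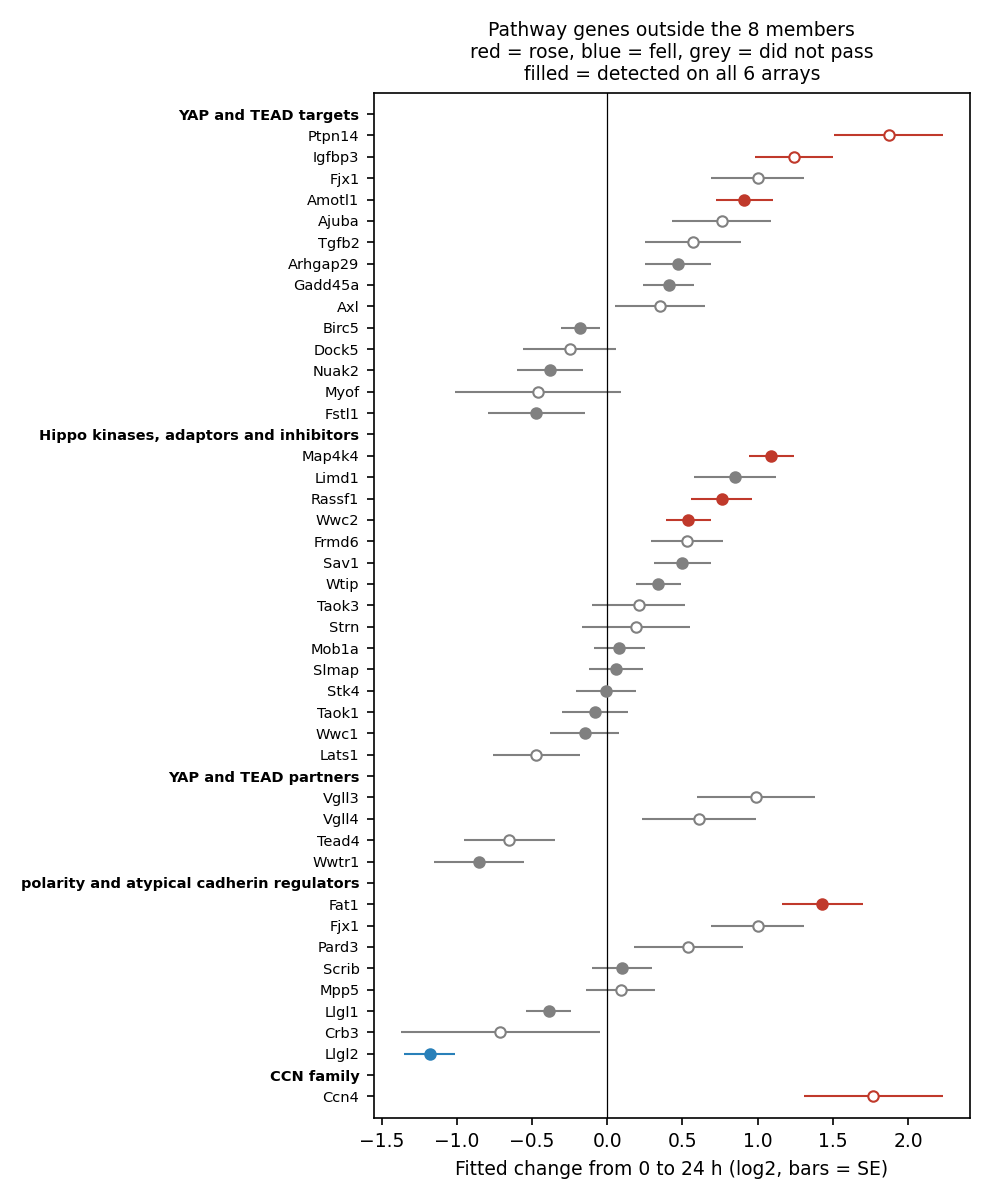
Fitted change between 0 and 24 h (log2, bars are SE from limma) of the 41 measured pathway genes outside the members, with Fjx1 shown in both of its lists. The 8 genes that rose and Llgl2, which fell, are coloured; open points were not detected on every array.

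Ccn2 and Ccn1 also answer to other inputs, so lists for these were counted in the same fit. Over all 9432 genes 6.24% rose and 6.19% fell, which are the shares to set beside the counts of each list here. Of the 11 SRF and MRTF targets detected on all 6 arrays, 3 rose and 1 fell, where 5.48% and 6.76% of all such genes did. Of all 13 measured SRF and MRTF targets, 5 rose and 1 fell. Without the 0, 2, 12 or 24 h array 3 rose and 0 fell in limma (at an unadjusted p under 0.05, 6, 6, 6 and 4 upward and 1, 1, 1 and 2 downward), and with hours in place of log2(hours + 1) 0 passed (6 upward and 1 downward unadjusted). The contractile genes Acta2 (24 h at least 13.0-fold above 0 h; limma adjusted p = 0.0045) and Tpm1 (1.89-fold; 0.0059) and the focal adhesion gene Zyx (3.01-fold; 0.0028) rose and kept the call without each array in turn, but not with untransformed hours (limma adjusted p from 0.054 to 0.061). Acta2 was detected at 8, 12 and 24 h alone, so it entered the test only through those arrays. Tpm2, which rose, and Tagln2, which fell, each kept the call in 2 of 6 fits that left out an array. Myl9, a myosin light chain gene, was detected at 24 h alone, at 26.1 units, under the 0 h limit. It entered the test only through that array, and its slope passed (limma adjusted p = 0.047). It also passed without the 4 h array, did not pass without the 0, 2, 8 or 12 h array (limma adjusted p from 0.055 to 0.12), and had no value without the 24 h array. Vcl and Flna, which encode vinculin and filamin, had fitted changes of 0.08 ± 0.16 and 0.16 ± 0.17, and Srf itself did not pass (0.59 ± 0.18; limma adjusted p = 0.056). Of 4 measured TGF-beta targets, the homeobox repressor gene Tgif1 rose (24 h 1.67-fold above 0 h; limma adjusted p = 0.044), a call that held without the 4 or 8 h arrays and was lost without each of the other 4 (limma adjusted p from 0.072 to 0.22). Ltbp3 did not pass (limma adjusted p = 0.33), and Smad7 was not detected. Of 6 measured immediate early genes, Egr1 rose (at least 2.63-fold; limma adjusted p = 0.0050), and Ier3 and Dusp1 fell (24 h below 0 h by 4.99-fold and 2.56-fold; limma adjusted p = 0.0040 and 0.0073). Jun was detected at 24 h alone and did not pass (limma adjusted p = 0.12), and Fos was not detected on any array.

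Over the 6 arrays, the genes most like Ccn2 were sought among 422 others that were detected throughout and spanned at least 1 log2 unit. The highest Pearson correlations were those of Cdkn1c (0.976), Dhrsx (0.974), Nt5m (0.969), Map4k4 (0.965) and Fbxl17 (0.961). All 5 were level or slightly lower between 8 and 12 h and highest at 24 h, from 2.05-fold for Fbxl17 to 5.11-fold for Cdkn1c over 0 h. The most opposed were Icam1 and Ell3 (both -0.992), Grb7 (-0.982), Zbtb32 (-0.974) and Kndc1 (-0.973), which were 2.19-fold to 4.40-fold lower at 24 h. These coefficients rest on 6 points that share arrays and are given as a description.

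**Figure D4:**
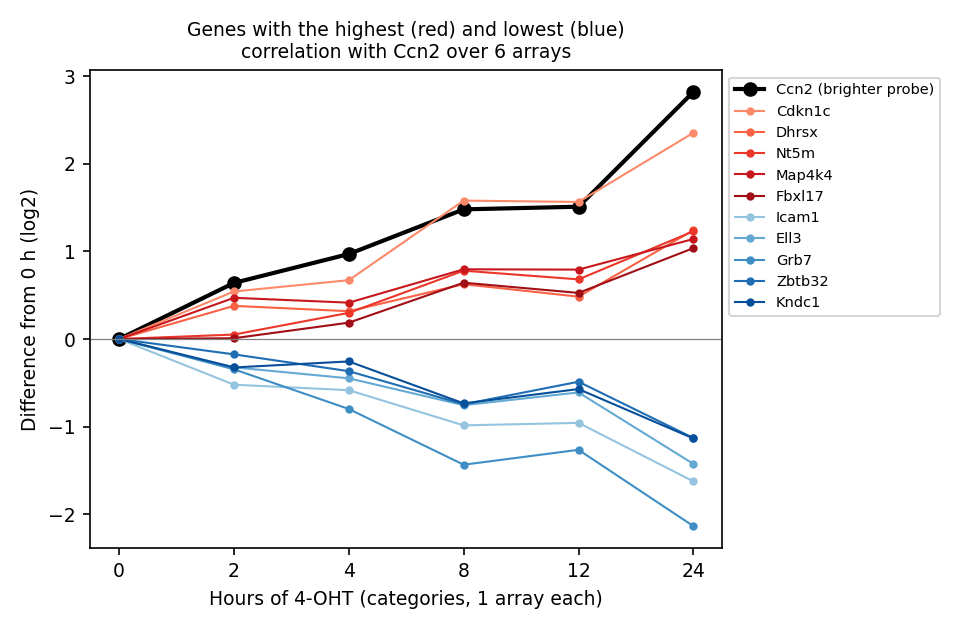
Difference from 0 h (log2) by hours of 4-OHT, 1 array per time, for Ccn2 (black), the 5 genes with the highest correlation with it (red) and the 5 with the lowest (blue). At 24 h Ccn2 (2.82) and Cdkn1c lie highest and Grb7 lowest.

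Markers were read for the labelled cells and for cells that a culture could also hold. All 8 embryonic stem cell markers were detected on all 6 arrays. Their summed signal was 13760 at 24 h against 21360 at 0 h, with Nanog, Zfp42, Esrrb and Klf4 falling and Pou5f1 not passing (limma adjusted p = 0.0081, 0.0030, 0.0074, 0.044 and 0.10). Esrrb led that sum, with 1641 units at 24 h against 6566 at 0 h, and without it the sum was 12120 against 14800. Utf1 rose (limma adjusted p = 0.024) and Sox2 did not pass (0.36). Zfp42 and Esrrb kept the call without each array, and Nanog lost it without the 0 h array (limma adjusted p = 0.073). Klf4 and Utf1 passed without the 4 or 8 h array and lost the call without the 0, 2, 12 or 24 h array (limma adjusted p from 0.053 to 0.13 and from 0.057 to 0.091). Fibroblast markers matter because fibroblasts express Ccn2, Ccn1 and Ankrd1 strongly. Of 13 on the array, 10 were not detected at any time, Col1a1, Col1a2, Col3a1, Lum and Postn among them. Their summed signal was 173 at 24 h against 187 at 0 h, between 173 and 268 over the series, and was highest at 4 h. Thy1 made up most of that sum, with 91.6 units at 24 h against 161 at 0 h, and without it the sum was 81.9 at 24 h against 26.4 at 0 h. Twist1, with 35.0 units at 24 h against 8.12 at 0 h, and Dcn, with 34.3 against 7.47, were detected at 12 and 24 h, under the 0 h limit. The Twist1 slope passed (limma adjusted p = 0.035), though the gene entered the test only through those arrays, and Dcn did not pass (0.090). Twist1 did not pass without the 0, 2, 12 or 24 h array (limma adjusted p from 0.051 to 0.12). Of 9 endoderm markers, 5 were never detected, Gata6, Gata4, Sox17, Foxa2 and Afp, and the sum lay between 336 and 396. The laminin gene Lama1 fell (limma adjusted p = 0.030), a call lost without the 0, 2, 12 or 24 h array (from 0.069 to 0.14), and Dab2 did not pass (0.056). A dimmer Dab2 probe, detected on 4 arrays like the brighter one, had a fitted change of 1.15 ± 0.24, beside 0.75 ± 0.23 for the brighter. Of 8 trophectoderm markers, Cdx2, Elf5 and Krt7 were never detected, and the sum was 602 at 24 h against 662 at 0 h. Tfap2c, which fell (limma adjusted p = 0.018), led that sum, which without it was 408 at 24 h against 183 at 0 h. Krt8 rose and kept the call without each array (limma adjusted p = 0.0070). The slopes of Krt18 and Eomes passed (limma adjusted p = 0.047 and 0.030), but both genes were detected at 12 and 24 h alone, under the 0 h limit, and Gata3 did not pass (0.21). Krt18 lost the call without any 1 array (limma adjusted p from 0.055 to 0.17). Eomes lost it without the 0, 2, 12 or 24 h array (from 0.059 to 0.12), and Tfap2c without the 0 or 12 h array (0.15 and 0.055). Their part in the results on Ccn2 was not tested, and in bulk RNA a change in the share of cells and a change in RNA per cell cannot be told apart.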

How the data were processed

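Total RNA of 6 samples was measured on Illumina mouse bead arrays, 1 per time. GenomeStudio is named in the submitters' processing notes. The deposited values are the authors' normalized signal intensity per probe, for 45281 probes, and a table without normalization that also gives the authors' detection p-value for 32765 of them. How the intensity was normalized is not given in the sources used here. All 6 arrays had the same lowest and highest normalized signal, -17.659 and 32363, and medians from 4.71 to 4.77. The arrays were thus brought to a common range, though the fitted background SD before normalization ran from 4.72 at 12 h to 16.1 at 0 h. Ranks within an array were identical in both tables, which let the detection p under 0.01 be carried over as a signal limit.

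From there, negative values were set to 0, 16 was added and log2 taken. The brightest probe stood for each gene. Genes detected on at least 1 array were fitted with limma 3.58.1 (lmFit and eBayes with trend, R 4.3.3) on log2(hours + 1), with Benjamini-Hochberg adjustment over 9432 genes. With 1 array per time, p-values measure the scatter of arrays about that line, which may be technical. Where a group was under the limit, folds use the limit and are written "at least". The fit was tested on simulated data.

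The members and lists were chosen with earlier results of these data known. Named genes were all member probes, up to 4 genes per list past the test by size and 1 that was not, all measured partners and CCN genes, and the 5 most and 5 least correlated with Ccn2. Stk4, Sav1, Lats1, Axl, F3, Crim1, Vcl, Flna, Tpm2, Tagln2, Thy1, Smad7, Fos, Pou5f1 and the undetected markers were named after their values were seen. Alternatives were other pseudocounts, backgrounds, filters and time scales, and leaving out each array.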

Additional observations from a re-analysis of the deposited data

How the results depend on the processing

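No paired analysis was possible because each time has 1 array. Over all genes 589 rose and 584 fell, and of the pathway genes outside the members 8 rose and 1 fell. Leaving out each array in turn gave 212 to 564 genes that rose, 231 to 647 that fell, 3 to 9 pathway genes that rose and 1 that fell. From the table without normalization, which holds fewer probes, 375 of 6137 genes and 4 of 25 pathway genes rose after normexp background correction, and 372 and 4 without it. The normalized table limited to the same probes, an alternative chosen after seeing the data, gave 373 and 4. Genes detected on all arrays gave 354 and 5 of 22. With hours in place of log2(hours + 1), 18 genes rose and 11 fell, and 0 pathway genes rose or fell in limma (10 and 3 at an unadjusted p under 0.05). With no detection filter, 0 genes rose or fell in limma (1829 and 1492 unadjusted), nor did pathway genes (16 and 2), and 1860 of 19057 genes were constant at 0 signal. At least 2-fold higher at 24 h than at 0 h were 374 genes, against 714 with a pseudocount of 4, 87 with 64 and 83 among genes detected on all arrays. The table without normalization gave 186 with normexp and 33 with no background correction, where the normalized table on the same probes gave 266. At least 2-fold lower were 375, against 183 with 64 and 166 among genes detected on all arrays, and 78 in the table without normalization with no background correction, where the same probes normalized gave 258. Where an alternative recomputed the values, the Ccn2 difference at 24 h (2.82) lay between 2.33 with no background correction and 2.91 with a pseudocount of 4, and that of Tead1 (-0.67) between -0.69 and -0.52. No difference from 0 h is given for Ccn1 and Amotl2, since it moves with the pseudocount. The cause of these shifts was not tested. Signal over background limits Ccn1, Amotl2, Ankrd1 and Lats2, which lay below the 0 h limit.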
